A study of Mus musculus with 8 samples.

Results

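Potassium channel genes were taken as every gene whose name in the array design starts with Kcn, with 1 exception. They numbered 97 of the 36827 gene names on the arrays and were read by 181 probes. A gene was tested if a probe stood well above background in both mice of some group. That held for 52 of the 97 genes, and 38 of the 52 were well above background on all 8 arrays. The other 45 were not tested. For 41 of them the brightest probe was above background on 0 arrays, among them the neuronal channel genes Kcna1 and Kcna2 and all 4 beta subunit genes of the large-conductance channel (Kcnmb1 to Kcnmb4). The remaining 4, Kcna5, Kcnab3, Kcnc4 and Kcnj11, were above background on 1 or 2 arrays.

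RNA came from the left kidney of 8 mice, 24 h after surgery, in 4 groups of 2 mice. The mimic group (mice 6 and 7) and the control-miRNA group (mice 1 and 5) received 5 nmol of a miR-5100 mimic or of a control miRNA, each complexed with polyethyleneimine nanoparticles at an N/P ratio of 6 in 200 µl, through the tail vein 2 days before ischaemia-reperfusion injury. IRI mice (30 and 34) had that injury without an injection, and in all 3 injured groups the right kidney was removed and the left renal vessels were clamped for 45 min. Sham mice (1 and 4) had only a midline incision of the abdomen and kept the right kidney. The injured groups thus differed from sham by the loss of 1 kidney as well as by the clamp, and the sources used here give no strain, sex or age. The mimic is the mature mouse miR-5100 of RefSeq (GRCm38.p6, chr11:60728698-60728718, plus strand). It is printed here because it is the only agent that differs between the mimic and control-miRNA groups, with the seed, bases 2 to 8, in capitals.
miR-5100: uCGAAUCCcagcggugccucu

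All values are log2 signal minus log2 of the 75th percentile of the same array, so 0 is the level of that percentile. The 75th percentile was 308.1 and 241.7 intensity units on the mimic arrays, 499.8 and 416.5 on control-miRNA, 468.4 and 599.8 on IRI and 407.7 and 475.7 on sham arrays, so the mimic arrays were the 2 dimmest of the 8. Between 53.16% and 58.76% of 59305 spots were well above background. Among the 45 channel genes that were not tested, the median level was −6.13 and −5.88 on the mimic arrays, −6.65 and −6.57 on control-miRNA, −6.80 and −7.10 on IRI and −6.47 and −6.48 on sham arrays. Signals near background therefore lay highest in the mimic group on this scale. In the slide layout, mimic and control-miRNA arrays shared row 2, and IRI and sham arrays shared row 1. Where an injected group is compared with an uninjected one, slide row and injection cannot be told apart. Defining markers of kidney tubules were present: all 8 proximal tubule genes listed were well above background on all 8 arrays.

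Potassium channels are membrane pores, and the gene families differ in what opens them. Inward rectifiers (Kcnj) and 2-pore channels (Kcnk) stay open near the resting potential, and in tubule cells they recycle the potassium that the sodium pump brings in and set the voltage that drives transport. Voltage-gated alpha subunits open on depolarization, calcium- or sodium-activated channels (Kcnma, Kcnn, Kcnt, Kcnu) respond to ions inside the cell, and accessory subunits (Kcne, Kcnab, Kcnip, Kcnmb, Kcnrg) modify the pores. Whole kidney tissue was measured, so fewer cells of a type and less RNA per cell cannot be told apart.

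Kcnt1, which encodes the sodium-activated channel Slack, was called lower than sham in all 3 injured groups. It has 4 probes on mm9 chromosome 2, plus strand, which did not all behave alike, and they are printed from 5′ to 3′ to show which part of the transcript each reads. A_52_P581412 covers chr2:25748074-25748704, a 60-base probe split by an intron. A_55_P2117272 lies at chr2:25750629-25750688, A_51_P489003 at chr2:25771566-25771625 and A_55_P1961720 at chr2:25773734-25773793. The first and the third are shown whole. Of the second, bases 1 to 30 are shown, and of the last, bases 23 to 52, with the polyadenylation hexamer AATAAA in capitals.
A_52_P581412: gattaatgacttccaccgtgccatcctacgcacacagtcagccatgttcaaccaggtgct
A_55_P2117272: tgaggtctaatgtgccaaacttccccctta
A_51_P489003: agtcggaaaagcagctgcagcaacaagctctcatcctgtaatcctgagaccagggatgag
A_55_P1961720: agtcaccagatcAATAAAagccacctgcac

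The last probe, which holds the hexamer and stands for the gene as its brightest, read −5.10 and −3.25 on the mimic arrays, −4.51 and −3.85 on control-miRNA arrays, −7.07 and −7.40 on IRI arrays and −0.94 and −0.96 on sham arrays. Every injured array lay below both sham arrays. The signal was above background on 1 of 2 mimic arrays, both control-miRNA arrays, neither IRI array and both sham arrays. Kcnt1 was at least 16.8-fold lower in IRI than in sham (limma, adjusted p = 0.00142). This bound sets each IRI array at its lowest signal still counted as above background. It was lower by a log2 difference of −3.23 ± 0.56 in control-miRNA (adjusted p = 0.0130) and of −3.22 ± 0.56 in mimic kidneys (adjusted p = 0.00936), where ± is the moderated standard error throughout.

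The neighbouring probe A_51_P489003, 2.17 kb upstream, fell as well. It was above background on the 2 sham arrays alone (−3.41 and −3.84) and was at least 1.36-fold lower in mimic, 2.10-fold lower in control-miRNA and 2.62-fold lower in IRI kidneys (adjusted p over all probes 0.0411, 0.0206 and 0.0107). This probe passed the filter through sham alone, where it is high, which tilts its test towards a lower call. The most 5′ probe, A_52_P581412, 25.7 kb from the last, did not pass against sham in any group. It read −3.50 and −2.93 on mimic, −5.77 and −3.79 on control-miRNA, −5.30 and −5.35 on IRI and −5.06 and −4.35 on sham arrays, and only 4 of the 8 arrays were above background. Its log2 difference from sham was 1.49 ± 0.60 in mimic (adjusted p = 0.101), −0.08 ± 0.60 in control-miRNA (adjusted p = 0.947) and −0.62 ± 0.60 in IRI (adjusted p = 0.513). The fourth probe, A_55_P2117272, was above background on 0 arrays. The fall of Kcnt1 was thus read by the 2 probes nearest the 3′ end, and the probes further 5′ were at or near background in sham too.

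**Figure D1:**
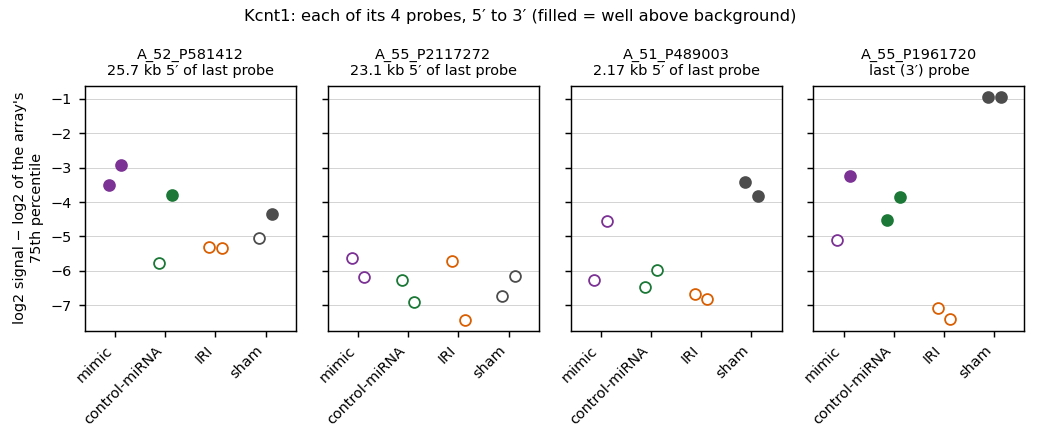
Level of each of the 4 Kcnt1 probes (vertical axis, log2 signal minus log2 of the array's 75th percentile) on the 2 arrays of each group, in panels from 5′ to 3′; filled points are well above background. On the last probe the sham arrays sit at −0.94 and −0.96 and the 6 injured arrays between −3.25 and −7.40, and on the first probe the mimic arrays are the highest.

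Among the members called against sham, falls outnumbered rises in each injured group. In IRI kidneys 10 members were lower and 0 higher (limma, Benjamini-Hochberg adjusted p under 0.05 over 21265 genes), beside 8.85% and 9.44% of all genes tested. In control-miRNA kidneys 8 were lower and 1 higher, beside 7.8% and 9.55% of all genes. In mimic kidneys 12 were lower and 4 higher, beside 12.8% and 15.2% of all genes. The shares of members called either way, 19.2%, 17.3% and 30.8%, lay near the 18.3%, 17.3% and 28.0% of all genes. These counts describe the members and carry no test over them. The median log2 difference of the members was 0.083 in mimic, −0.334 in control-miRNA and −0.434 in IRI kidneys, beside 0.112, −0.047 and −0.081 for all genes. Differences, called or not, were negative for 22, 42 and 40 of the 52 members in the same order, beside 44.0%, 53.3% and 55.5% of all genes. In mimic kidneys the other 30 members were positive. These comparisons share the sham arrays and are not independent of each other. With 2 mice a group the counts, of members and of all genes alike, rested on single arrays. Without sham 1 or without sham 4, members called numbered 4 and 2 in mimic, 0 and 0 in control-miRNA and 1 and 1 in IRI kidneys, the last being Kcnt1 each time. Without IRI 30 or IRI 34, 1 and 2 passed in IRI, and without control-miRNA 1, 1 passed in control-miRNA.

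Restricting the count to the 38 members above background on all 8 arrays gave 7 lower and 3 higher in mimic, 4 lower and 0 higher in control-miRNA and 6 lower and 0 higher in IRI kidneys. The same shares of all 18007 such genes were 13.0% and 15.2%, 7.37% and 9.42%, and 8.42% and 9.55%. For 14 of the 52 members all 6 injured arrays lay below both sham arrays, against 17.7% of all genes tested. They were Kcnab1, Kcne1l, Kcng1, Kcnh4, Kcnj2, Kcnj8, Kcnj13, Kcnj15, Kcnj16, Kcnk5, Kcnn1, Kcns1, Kcnt1 and Kcnu1. For 0 members all 6 injured arrays lay above both sham arrays, against 17.9% of all genes and 18.7% of those above background on all 8 arrays. Among the 38 members so detected, 8 had all injured arrays below sham, against 17.5%. Of the 52 tested members, 27 (51.9%) were called in at least 1 of 6 comparisons, beside 41.9% of all genes tested. They include 5 (9.62% of those tested) called lower in every injured group against sham, beside 4.68% of all genes: Kcnt1, Kcnj8, Kcnn1, Kcne1l and Kcns1.

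**Figure D2:**
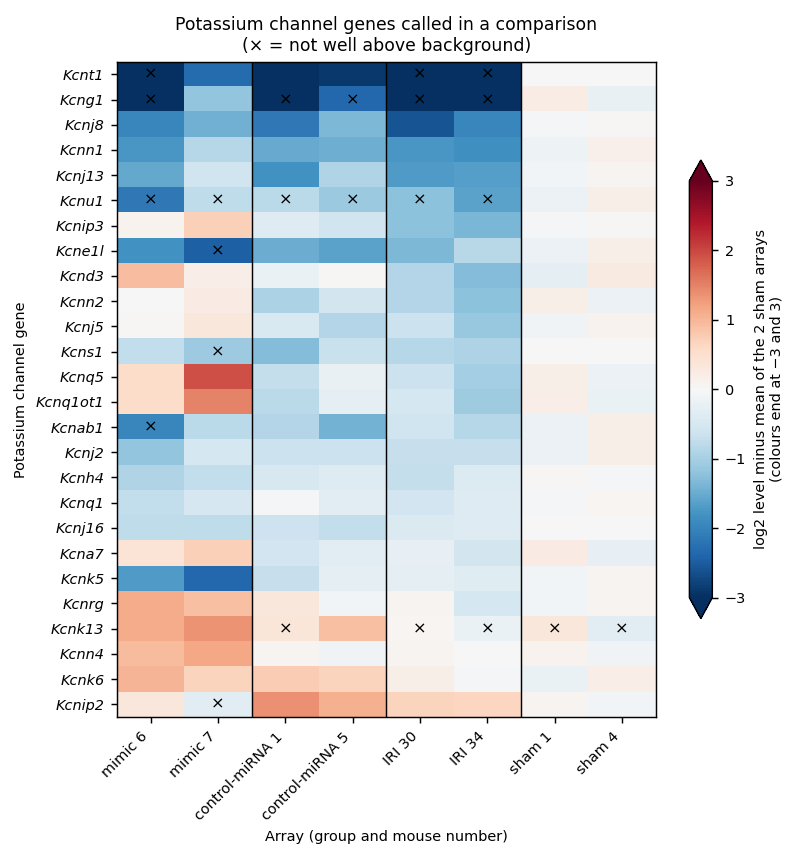
Potassium channel genes, 26 of the 27 called (rows), on the 8 arrays (columns), coloured by log2 level minus the mean of the 2 sham arrays, with a cross where the probe was not well above background. Kcnt1, Kcng1, Kcnj8 and Kcnn1 are below sham on all 6 injured arrays, and Kcnn4, Kcnk13, Kcnrg, Kcnq5 and Kcnq1ot1 are highest on the mimic arrays.

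Inward rectifiers supplied 14 members, of which 9 were tested. Lower calls numbered 3 in mimic, 2 in control-miRNA and 3 in IRI kidneys, with 0 higher calls. Beside them, 12.8%, 7.8% and 8.85% of all genes were called lower and 15.2%, 9.55% and 9.44% higher. Kcnj8, the pore subunit Kir6.1 of the ATP-sensitive potassium channel of vascular smooth muscle and pericytes, fell in all 3. Its level was −1.41 and −0.89 in mimic, −1.58 and −0.79 in control-miRNA, −2.04 and −1.41 in IRI and 0.52 and 0.59 in sham kidneys. The 3 injured groups overlapped one another and stayed below sham. The log2 differences were −1.70 ± 0.34 (adjusted p = 0.0144), −1.74 ± 0.34 (adjusted p = 0.0186) and −2.28 ± 0.34 (adjusted p = 0.00735) in mimic, control-miRNA and IRI kidneys.

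Abcc9, which encodes SUR2, the regulatory subunit that joins Kir6 pores, is not a Kcn gene but completes this channel. It read −1.81 and −0.93 in mimic, −2.71 and −1.97 in control-miRNA, −3.49 and −2.77 in IRI and 0.33 and 0.39 in sham kidneys. Both subunits of the channel fell in every injured group. The log2 difference of Abcc9 was −1.73 ± 0.39 in mimic, −2.70 ± 0.39 in control-miRNA and −3.49 ± 0.39 in IRI (adjusted p = 0.0214, 0.00730 and 0.00289). Of 6 smooth muscle and pericyte markers (Acta2, Myh11, Tagln, Pdgfrb, Rgs5 and Notch3, all above background on all 8 arrays), 0 were called lower in any injured group and 4 were higher in mimic kidneys. Their summed linear level was 45.71 to 120.0 in mimic, 28.91 to 57.78 in control-miRNA, 28.94 to 36.57 in IRI and 17.53 to 20.64 in sham kidneys. The median log2 difference of the 6 markers was 1.01 in mimic, 0.30 in control-miRNA and −0.21 in IRI kidneys. The part of these cells in the fall of Kcnj8 and Abcc9 was not tested. Rgs5, a pericyte marker and 1 of these 6, had log2 differences of −0.76 ± 0.42, −0.92 ± 0.42 and −0.79 ± 0.42, which did not pass (adjusted p = 0.208, 0.177 and 0.233). It lay below the median of the 6 markers in each group and does not stand for the list.

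Kcnj16 encodes Kir5.1, which joins Kir4.1 (Kcnj10) in the basolateral channel of the distal convoluted tubule. It read 5.45 and 5.44 in mimic, 5.59 and 5.47 in control-miRNA, 5.77 and 5.81 in IRI and 6.19 and 6.22 in sham kidneys. All 6 injured arrays were below sham, and the 2 mice of a group differed little. The fall was −0.76 ± 0.15 in mimic (adjusted p = 0.0133) and −0.67 ± 0.15 in control-miRNA (adjusted p = 0.0263). In IRI the difference of −0.42 ± 0.15 did not pass (adjusted p = 0.0975). Its partner Kcnj10 read 1.98 and 2.72, 2.41 and 2.73, 2.19 and 2.31, and 2.70 and 2.95 in the same order of groups and passed in none. Among 5 markers of the distal convoluted and connecting tubule, 2 were lower in mimic, 3 in control-miRNA and 3 in IRI, and the summed level was 12.24 to 18.05, 14.51 to 17.55 and 12.16 to 17.55 against 43.77 to 45.56 in sham. The part of these cells in the fall of Kcnj16 was not tested.

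Among the other inward rectifiers, Kcnj13 (Kir7.1) read −3.83 and −2.88 in mimic, −4.10 and −3.18 in control-miRNA, −3.99 and −3.94 in IRI and −2.37 and −2.20 in sham kidneys. It fell in IRI by a log2 difference of −1.68 ± 0.39 (adjusted p = 0.0291). In mimic and control-miRNA kidneys the differences of −1.07 ± 0.39 and −1.36 ± 0.39 did not pass (adjusted p = 0.0776 and 0.0552). Kcnj5, a G-protein-activated subunit (Kir3.4), was lower in IRI (−0.89 ± 0.25, adjusted p = 0.0498), and Kcnj2 (Kir2.1), the classical strong rectifier, was lower in mimic (−0.85 ± 0.25, adjusted p = 0.0454). Both calls lay close to the threshold, and that of Kcnj5 held in 6 of 18 and that of Kcnj2 in 5 of 17 other settings. Kcnj15 (Kir4.2) was below sham on every injured array without being called: 3.08 and 3.03 in mimic, 3.15 and 3.24 in control-miRNA, 3.36 and 2.79 in IRI, and 3.67 and 3.38 in sham.

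**Figure D3:**
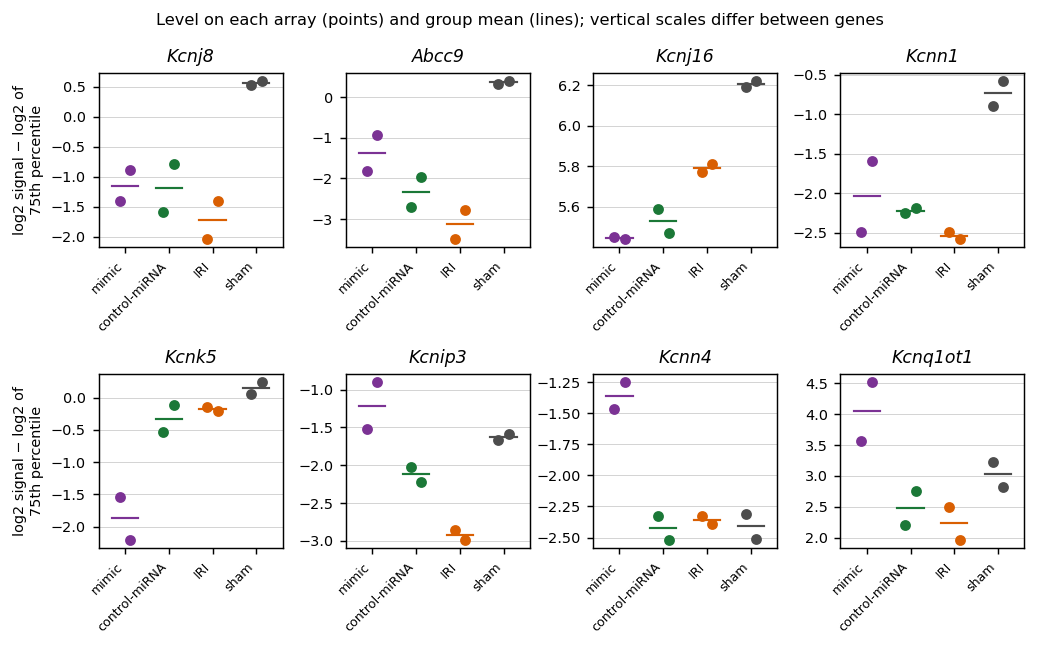
Level of 7 potassium channel genes and of Abcc9 on each array (points, log2 signal minus log2 of the 75th percentile) with the group mean (line); the vertical scale differs between panels. Kcnj8, Abcc9, Kcnj16 and Kcnn1 are lower in all 3 injured groups than in sham, Kcnk5 is lowest and Kcnn4 and Kcnq1ot1 are highest in mimic kidneys, and Kcnip3 is lowest in IRI kidneys.

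Of 14 genes for 2-pore channels, 7 were tested, and 0 were called in IRI or control-miRNA kidneys, beside 18.3% and 17.3% of all genes. In mimic kidneys 1 fell and 2 rose, beside 12.8% and 15.2% of all genes. Kcnk5 encodes TASK-2, a channel of proximal tubule cells that opens at alkaline pH. It read −1.54 and −2.21 in mimic, −0.53 and −0.12 in control-miRNA, −0.15 and −0.21 in IRI and 0.06 and 0.24 in sham kidneys. The mimic arrays stood clearly below the other 6. The log2 difference from sham was −2.03 ± 0.26 in mimic (adjusted p = 0.00408), against −0.48 ± 0.26 in control-miRNA and −0.34 ± 0.26 in IRI. In all 3 injured groups, 7 of 8 proximal tubule markers were lower than in sham, with a summed level of 229.6 to 331.3 in mimic, 257.6 to 318.0 in control-miRNA, 274.4 to 296.4 in IRI and 822.2 to 856.2 in sham. The injured groups overlapped in that sum. The part of proximal tubule cells in the level of Kcnk5 was not tested.

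Kcnk6 (TWIK-2) rose in mimic kidneys, with −2.07 and −2.42 in mimic, −2.33 and −2.41 in control-miRNA, −2.91 and −3.12 in IRI and −3.27 and −2.89 in sham. The log2 difference was 0.83 ± 0.21 in mimic (adjusted p = 0.0290) and 0.71 ± 0.21 in control-miRNA (adjusted p = 0.0617, not past the threshold). The mimic call of Kcnk6 held in 6 of 17 other settings. Kcnk13 (THIK-1) was not above background on either sham or either IRI array and read −3.83 and −3.59 in mimic, which made it at least 1.98-fold higher than in sham (adjusted p = 0.0240). It passed the filter through the mimic group alone, where it is high, which tilts its test towards a higher call. Kcnk1 (TWIK-1) did not pass in any comparison, with 1.41 and 1.76 in mimic, 2.12 and 1.86 in control-miRNA, 1.56 and 1.80 in IRI and 1.40 and 1.62 in sham kidneys.

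Of the 8 calcium- or sodium-activated channel genes 7 were tested. Besides Kcnt1, the small-conductance calcium-activated channel gene Kcnn1 (SK1) fell in every injured group. It read −2.49 and −1.59 in mimic, −2.25 and −2.19 in control-miRNA, −2.49 and −2.58 in IRI and −0.89 and −0.58 in sham kidneys. No injured array reached the sham range. The log2 difference was −1.30 ± 0.30 in mimic (adjusted p = 0.0215), −1.48 ± 0.30 in control-miRNA (adjusted p = 0.0198) and −1.80 ± 0.30 in IRI (adjusted p = 0.0101). As for Kcnt1, probes along the gene differed. A second probe 0.348 kb further 5′ gave −1.30, −1.63 and −1.76. A probe 9.91 kb further 5′ was dim, with −3.69 and −3.82 in sham, where the lowest signals above background were −4.51 and −4.89. It was above background on neither mimic array and at least 1.17-fold lower there. Its differences were −0.07 in control-miRNA and −0.27 in IRI. None of the 3 passed (adjusted p = 0.336, 0.885 and 0.518). So dim a probe leaves little room to read a fall.

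Kcnn2 (SK2) read −2.36 and −2.14 in mimic, −3.32 and −2.93 in control-miRNA, −3.25 and −3.61 in IRI and −2.20 and −2.56 in sham kidneys, and fell in IRI (−1.05 ± 0.23, adjusted p = 0.0260). On this brightest probe the mimic arrays overlapped sham. A second Kcnn2 probe, above background on 7 arrays, gave −1.17 ± 0.59 in mimic, −1.11 ± 0.59 in control-miRNA and −1.50 ± 0.59 in IRI. None of these passed over all probes (adjusted p = 0.166, 0.245 and 0.132). Kcnn4, the intermediate-conductance channel KCa3.1 of T cells and red cells, read −1.47 and −1.25 in mimic, −2.33 and −2.52 in control-miRNA, −2.33 and −2.39 in IRI and −2.31 and −2.51 in sham. It rose in mimic kidneys (1.05 ± 0.17, adjusted p = 0.00822), and the differences of −0.01 ± 0.17 in control-miRNA and 0.05 ± 0.17 in IRI did not pass. Of 6 T cell markers 4 were tested and 0 were called in any comparison against sham, and Cd8a was above background on 0 arrays. A second Kcnn4 probe, above background on 5 arrays, differed from sham by 0.03 ± 0.21 in mimic (adjusted p = 0.922). It was above background on neither mimic array and, in sham, on sham 4 alone. Its value thus carries no information on agreement in mimic.

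Kcnma1, the large-conductance channel BK, did not pass on its brightest probe, with −1.73 and −1.48 in mimic, −2.00 and −1.72 in control-miRNA, −1.70 and −1.94 in IRI and −1.60 and −1.76 in sham kidneys. Its 3 other tested probes had negative differences from sham in every injured group. Of these, A_51_P274073 passed in mimic (at least 1.29-fold lower, adjusted p = 0.00620) and in IRI (−1.13 ± 0.22, adjusted p = 0.0189). Kcnu1 (Slo3), a channel known from sperm, was above background only in sham (−4.07 and −3.74). It was at least 1.12-fold lower in mimic (adjusted p = 0.0479), and with normexp background correction the difference was 0.15 (adjusted p = 0.509). It passed the filter through sham alone, which tilts its test towards a lower call. Its bounds of 1.72-fold in control-miRNA and 2.16-fold in IRI came with differences that did not pass (adjusted p = 0.173 and 0.0660).

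Voltage-gated alpha subunits made up 40 members, and 20 were tested. Lower calls numbered 3 in mimic, 3 in control-miRNA and 2 in IRI kidneys, and 0 were called higher than sham. Of all genes, 12.8%, 7.8% and 8.85% were called lower and 15.2%, 9.55% and 9.44% higher in that order. The 2 that follow are silent subunits, which modify other voltage-gated channels without forming channels of their own. Kcng1 (Kv6.1) read −5.31 and −3.33 in mimic, −6.64 and −4.49 in control-miRNA, −6.75 and −7.08 in IRI and −1.91 and −2.36 in sham kidneys. It was not above background on any control-miRNA or IRI array and was at least 5.56-fold lower in control-miRNA (adjusted p = 0.0336) and 7.37-fold lower in IRI kidneys (adjusted p = 0.0112). It too passed the filter through sham alone, where it is high. The mimic arrays were far apart, and the difference of −2.18 ± 0.82 did not pass (adjusted p = 0.0859).

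Kcns1 (Kv9.1) read −3.81 and −4.17 in mimic, −4.37 and −3.73 in control-miRNA, −3.93 and −3.99 in IRI and −3.07 on both sham arrays. It was lower by −0.92 ± 0.25, −0.98 ± 0.25 and −0.89 ± 0.25 in mimic, control-miRNA and IRI kidneys (adjusted p = 0.0340, 0.0384 and 0.0486). In mimic, where 1 of 2 arrays was above background, normexp background correction turned the sign (0.09, adjusted p = 0.696), and the call held in 6 of 16 other settings. The calls of Kcns1 in control-miRNA and in IRI each held in 7 of 17 other settings. Every injured array lay below sham. Kcnh4, of the ether-a-go-go family, fell in mimic kidneys (−0.82 ± 0.17, adjusted p = 0.0171). Positive differences in this family that did not pass were 0.90 ± 0.44 for Kcnh1 in IRI (adjusted p = 0.197), at least 1.31-fold for Kcnh2 in control-miRNA (adjusted p = 0.111), which was above background on neither sham array, and 1.24 ± 0.44 for Kcnq5 in mimic (adjusted p = 0.0770).

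Kcnq1 (KvLQT1), which pairs with Kcne1 in heart and proximal tubule, read 1.64 and 1.87 in mimic, 2.35 and 2.04 in control-miRNA, 1.81 and 1.99 in IRI and 2.32 and 2.44 in sham kidneys. It was lower in mimic by −0.62 ± 0.19 (adjusted p = 0.0485), a call that held in 2 of 17 other settings. A further probe near the gene's 3′ end gave the same −0.62 ± 0.21 without passing over all probes (adjusted p = 0.0645), and the mean of the gene's probes gave 0.09. One probe of a shorter transcript at the 5′ side, A_55_P2745114, went the other way in mimic kidneys (1.99 ± 0.57, adjusted p = 0.0402). The direction for Kcnq1 thus depended on the probe.

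Accessory subunits supplied 17 members, with 8 tested. Kcne1l (also called Kcne5), a small single-pass subunit that dampens Kcnq1 currents, read −4.20 and −4.85 in mimic, −3.88 and −3.99 in control-miRNA, −3.74 and −3.23 in IRI and −2.56 and −2.23 in sham kidneys. The measured values of the 4 groups did not overlap, with mimic lowest, but mimic 7 was not above background. The lowest signal above background on that array was −3.92, between the 2 control-miRNA values. The order of mimic and control-miRNA is thus not settled by that array. The log2 difference from sham was −2.13 ± 0.28 in mimic (adjusted p = 0.00437), −1.54 ± 0.28 in control-miRNA (adjusted p = 0.0155) and −1.09 ± 0.28 in IRI (adjusted p = 0.0414). The IRI call held in 7 of 17 other settings. Kcnab1, a cytoplasmic beta subunit of Kv1 channels, was lower in mimic (−1.39 ± 0.39, adjusted p = 0.0401), and Kcnrg, which hinders the assembly of Kv channels, was higher there (1.01 ± 0.26, adjusted p = 0.0306). For Kcnab1, 1 of 2 mimic arrays was above background, and the call held in 5 of 16 other settings.

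The potassium channel interacting proteins, calcium-binding partners of Kv4 channels, did not move together. Kcnip3 read −1.52 and −0.90 in mimic, −2.02 and −2.22 in control-miRNA, −2.85 and −2.99 in IRI and −1.66 and −1.59 in sham kidneys, and fell in IRI (−1.29 ± 0.23, adjusted p = 0.0130). Kcnip2 read −3.79 and −4.45 in mimic, −2.78 and −3.08 in control-miRNA, −3.47 and −3.50 in IRI and −4.06 and −4.22 in sham. It rose in control-miRNA kidneys (1.21 ± 0.25, adjusted p = 0.0208), and in IRI the difference of 0.66 ± 0.25 did not pass (adjusted p = 0.113). Kcne4 had the third highest difference in IRI, 0.59 ± 0.36, which did not pass (adjusted p = 0.292).

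**Figure D4:**
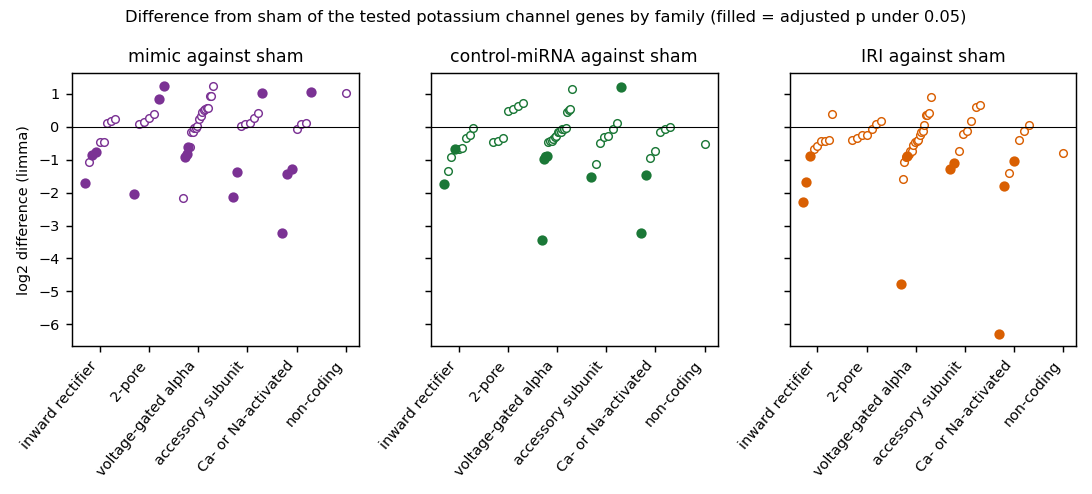
Log2 difference from sham (vertical axis) of the 52 tested potassium channel genes by family in mimic, control-miRNA and IRI kidneys; each point is 1 gene and filled points passed the adjusted threshold. All filled points among inward rectifiers and voltage-gated alpha subunits are below 0 in each panel, and the filled points above 0 are 4 genes in mimic and 1 in control-miRNA kidneys. For Kcnt1, Kcng1, Kcnu1, Kcnk13 and Kcnh2, points that involve a group below background show measured values, for which only bounds hold.

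Set against IRI kidneys, mimic kidneys showed 11 members higher and 2 lower, beside 10.5% and 5.53% of all genes. Among the 38 members above background on all 8 arrays, 9 were higher and 1 lower, beside 10.5% and 5.76%. Kcnip3 was higher by 1.71 ± 0.23 and Kcnd3, the Kv4.3 pore that it can join, by 1.64 ± 0.31 (adjusted p = 0.0387 each). Kcnd3 read −0.50 and −1.21 in mimic, −1.62 and −1.38 in control-miRNA, −2.29 and −2.71 in IRI and −1.69 and −1.15 in sham kidneys. Both genes were lowest in IRI, and for Kcnd3 the mimic arrays overlapped sham.

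Kcnq1ot1, a long non-coding RNA read from the opposite strand within Kcnq1, and Kcnq5, a Kv7 pore gene, had the highest differences between mimic and IRI among the members above background on all 8 arrays. Kcnq1ot1 read 3.57 and 4.52 in mimic, 2.21 and 2.75 in control-miRNA, 2.50 and 1.96 in IRI and 3.23 and 2.82 in sham kidneys, and was 1.81 ± 0.38 higher in mimic than in IRI (adjusted p = 0.0387). Its 4 tested probes gave differences of 1.74 to 2.14. Kcnq5 read 1.42 and 2.80, 0.15 and 0.65, 0.22 and −0.15, and 1.05 and 0.69 in mimic, control-miRNA, IRI and sham, and was 2.08 ± 0.44 higher in mimic than in IRI (adjusted p = 0.0387). The probe that stands for Kcnq5 was its only probe of 5 above background on any array.

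The other members higher in mimic than in IRI were Kcnt1 (at least 1.80-fold), Kcnk13 (at least 2.43-fold), Kcnrg (1.22 ± 0.26), Kcnn2 (1.18 ± 0.23), Kcnj5 (1.07 ± 0.25), Kcnn4 (1.00 ± 0.17) and Kcna7 (0.96 ± 0.23). Their adjusted p lay between 0.0387 and 0.0406, apart from 0.0435 for Kcna7. The second Kcnn2 probe gave 0.33 ± 0.59 here, which did not pass (adjusted p over all probes 0.692). Kcnk5 (−1.69 ± 0.26, adjusted p = 0.0387) and Kcne1l (−1.04 ± 0.28, adjusted p = 0.04997) were lower. For Kcnt1 the most 5′ probe was also higher, at least 3.49-fold (adjusted p = 0.0494). That probe and Kcnk13 passed the filter through the mimic group alone, where they are high, which tilts their tests towards higher calls. The Kcnt1 probe next to the last was above background in neither group. Without any 1 of sham 1, sham 4, IRI 30, IRI 34, mimic 7, control-miRNA 1 or control-miRNA 5, 0 members passed in this comparison. With array brightness as a covariate, 0 of these 13 calls and 0 of the 16 calls of mimic against sham passed, beside 0 and 115 of 21265 genes. The mimic-IRI differences of Kcna7, Kcne1l, Kcnq1ot1 and Kcnq5 changed sign (−0.03, 0.29, −0.16 and −0.07). With normexp the Kcne1l difference was 0.18. Brightness differed mainly between the mimic arrays and the rest, so its part and that of the mimic cannot be told apart.

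Between mimic and control-miRNA kidneys, which by design differ in the sequence injected, 0 of 52 members and 0 of 21265 genes passed with limma. The mimic arrays were also dimmer, so sequence and array brightness cannot be told apart here. At an unadjusted p under 0.05 there were 14 members, 12 of them higher in mimic, and 7188 genes (33.8%). The smallest adjusted p of a member was 0.0663, for Kcnk5 (−1.55 ± 0.26, 95% interval −2.17 to −0.92), Kcnip2 (−1.20 ± 0.25), Kcnn4 (1.06 ± 0.17) and Kcna7 (1.02 ± 0.23). The arrays of the 2 groups did not overlap for any of these 4 genes. They were picked by p in this same comparison, so the lack of overlap adds no support. Kcnq1ot1 differed by 1.57 ± 0.38 (adjusted p = 0.0668) and Kcnq1 by −0.44 ± 0.19 (adjusted p = 0.154). Kcnt1 differed by 0.01 ± 0.56, with an interval of −1.32 to 1.33, and Kcnj16 by −0.09 ± 0.15, with an interval of −0.44 to 0.26. These intervals still allow a change of more than 2-fold for Kcnt1.

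Between control-miRNA and IRI kidneys, 0 members and 0 genes passed. At an unadjusted p under 0.05 there were 6 members and 870 genes (4.09%). The members with the smallest p were Kcnt1 (at least 1.79-fold higher in control-miRNA, adjusted p = 0.642), Kcnip3 (0.80 ± 0.23, adjusted p = 0.859) and Kcnd3 (1.00 ± 0.31, adjusted p = 0.928), and on the lower side Kcne4 (−0.86 ± 0.36), Kcnj9 (−0.47 ± 0.29) and Kcnj16 (−0.26 ± 0.15). For Kcnt1, Kcnip3 and Kcnd3 both control-miRNA arrays lay above both IRI arrays, which adds no support because p in this comparison picked them.

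Other genes of potassium handling were read from a list of 39, of which 32 were tested. Against sham, 3 were higher and 7 lower in mimic, 4 higher and 5 lower in control-miRNA and 4 higher and 7 lower in IRI kidneys. The shares of all genes called higher and lower were 15.2% and 12.8%, 9.55% and 7.8%, and 9.44% and 8.85% in that order. The counts carry no test over the list. Atp4a, the catalytic subunit of a proton-potassium pump, read −2.27 and −2.09 in mimic, −2.63 and −1.58 in control-miRNA, −2.66 and −1.75 in IRI and −0.07 and 0.36 in sham, and fell by a log2 difference of −2.32 ± 0.42, −2.25 ± 0.42 and −2.34 ± 0.42 (adjusted p = 0.0107, 0.0166 and 0.0132). Slc12a4, a potassium-chloride cotransporter of cell volume control, rose by 1.85 ± 0.20, 1.70 ± 0.20 and 1.65 ± 0.20 (adjusted p = 0.00239, 0.00376 and 0.00373). The kinase Wnk1, which regulates the distal cotransporters, fell by −1.64 ± 0.21, −1.09 ± 0.21 and −1.21 ± 0.21, and the kinase Oxsr1 downstream of it rose by 1.18 ± 0.23, 1.37 ± 0.23 and 1.33 ± 0.23, in the same order of groups (adjusted p from 0.00381 to 0.0172 for both genes).

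Dpp6, a partner of Kv4 channels, fell in mimic, control-miRNA and IRI kidneys (−1.28 ± 0.26, −1.07 ± 0.26 and −1.40 ± 0.26, adjusted p = 0.0154, 0.0354 and 0.0147). Amigo1, an adhesion protein that joins voltage-gated channels, fell in control-miRNA and IRI kidneys (−1.18 ± 0.27 and −1.06 ± 0.27, adjusted p = 0.0282 and 0.0375). Fxyd5, a subunit that modulates the sodium pump, rose by 2.01 ± 0.17 in mimic, 1.06 ± 0.17 in control-miRNA and 0.68 ± 0.17 in IRI kidneys (adjusted p = 0.00146, 0.0103 and 0.0364), and was also higher in mimic than in IRI (1.32 ± 0.17, adjusted p = 0.0387).

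Several channel genes in the set are better known from neurons. Of 5 neuronal markers, 4 were tested and Rbfox3 was above background on 0 arrays. Their summed level was 15.13 to 39.69 in mimic, 5.839 to 8.428 in control-miRNA, 4.57 to 6.29 in IRI and 15.03 to 21.15 in sham kidneys. Snap25 was lower than sham in IRI (−2.03 ± 0.51, adjusted p = 0.0380). The sums of mimic and sham kidneys lay above those of control-miRNA and IRI, as did the levels of Kcnip3 and of the brightest Kcnn2 probe. Other members did not follow this order. Kcnt1 (−5.10 and −3.25) and Kcnn1 (−2.49 and −1.59) in mimic lay below sham (−0.94 and −0.96, −0.89 and −0.58). The second Kcnn2 probe read −4.48 and −2.53 in mimic, around its control-miRNA values of −3.42 and −3.48. Kcnip3 and Kcnn2 thus do not stand for the set. The part of nerve tissue in these levels was not tested. The 2 mice of a group differed by a median of 0.34 in mimic, 0.31 in control-miRNA, 0.25 in IRI and 0.21 in sham over the 52 members on the log2 scale, against 0.37, 0.24, 0.20 and 0.16 over all genes.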

How the data were processed

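Each kidney was read on 1 array of 1 slide with 1 scan time, from 50 ng of RNA out of 30 mg of tissue. Per the file headers, Agilent Feature Extraction 12.0.3.1 gave a processed intensity per spot, background-subtracted and detrended within the array by the authors' scanner software, beside raw mean and local background intensity. A deposited table for the series gives a ratio for each probe on a linear scale, which its values show to be the probe over its median of 8 arrays, with earlier scaling not given in the sources used here. It served only as an alternative. Column medians of that ratio were 1.0031 and 1.0169 in mimic, 1.0009 and 0.9949 in control-miRNA, 0.9980 and 0.9981 in IRI and 0.9922 and 1.0046 in sham.

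Control and outlier spots were dropped, and none of the rest was saturated (0 spots). Processed intensity was put on a log2 scale, set relative to the 75th percentile of its array and averaged over a probe's spots. Probes well above background in both mice of some group were kept (32216 of 56601), and the probe with the highest mean stood for its gene. Names came from RefSeq accessions for 33766 probes, current symbols for 9864, older symbols for 310 and the files for 12661. Positions are mm9, per the file headers. limma 3.58.1 in R 4.3.3 was fitted to all 8 arrays with a mean per group (6.84 degrees of freedom), adjusted over 21265 genes, and tested on simulated data. Bounds ("at least") replace folds where a group was not above background: dim arrays take the higher of their value and the array's lowest signal above background. Mice were separate animals by their numbers. The number of arrays limits precision. Named genes were Kcnt1, Kcnj16, all members called in any comparison, and the 3 highest and 3 lowest per comparison (by difference against sham, by p among injured groups). Results for some genes are not reported here, though counts include them. Genes outside this rule, such as Kcnma1, were added after their values were seen. Members, lists, rules and settings were chosen with earlier results of these data known. The alternatives were quantile scaling, normexp background correction (offset 50), no filter or a filter on all 8 arrays, the mean of a gene's probes, the deposited ratios, brightness or slide column as a covariate, only 2 groups, and each array left out. The array names Kcng1 and Kcnk9 also by older symbols on 2 probes that were not counted as members.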

Additional observations from a re-analysis of the deposited data

How the results depend on the processing

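No paired analysis was possible because the groups share fewer than 2 replicate numbers. The fall of Kcnt1 in IRI passed in all 17 other settings that gave a value, and the filter on all 8 arrays left it none. The count of members called in IRI against sham, 10, was 5 without the filter, 5 with brightness as a covariate, 20 with only the 2 groups and 16 without both mimic arrays, a setting chosen after seeing the data. All genes called, 3890 of 21265, were in the same order 2452 of 36827, 1858, 6786 and 5991 of 21176. The 9 of control-miRNA against sham were 5 without the filter, 5 with the slide column and 14 without both mimic arrays. Beside them, 3688 genes became 2275 of 36827, 1961 and 5755 of 21176. The 16 of mimic against sham were 10 without the filter, 10 with the filter on all 8 arrays, 0 with brightness, 9 with the slide column and 6 with only the 2 groups. Beside them, 5964 genes became 3853 of 36827, 5840 of 18035, 115, 3204 and 3039. The 13 of mimic against IRI were 30 with normexp, 38 without the filter, and 0 with brightness, with the slide column or with only the 2 groups. Beside them, 3409 genes became 10341 with normexp, 11949 of 36827 without the filter and 0 in the rest. The 0 of mimic against control-miRNA were 12 with normexp and 5 with the filter on all 8 arrays, beside 5828 of 21265 and 1495 of 18035 genes. The 14 members with all injured arrays below sham were 9 with normexp and 8 with the filter on all 8 arrays. With normexp the same share over all genes is not given here. Leaving out 1 array at a time gave 1 to 16 calls in IRI, 0 to 14 in control-miRNA and 2 to 15 in mimic against sham, 0 to 17 in mimic against IRI, 0 to 10 in mimic against control-miRNA, 0 to 0 in control-miRNA against IRI, and 14 to 20 members below sham. Without either sham array or IRI 30 only 1 member passed in IRI, and without IRI 34 there were 2. Without either sham array 0 passed in control-miRNA, and without control-miRNA 1 there was 1. A group left with 1 array was assumed to vary like the others. The number of all genes called changed with the array left out too, so the ranges of calls are not particular to the members. Mimic against IRI fell to 0 without any 1 of sham 1, sham 4, IRI 30, IRI 34, mimic 7, control-miRNA 1 or control-miRNA 5.

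The Kcnt1 probe A_52_P581412 gave −0.62, −0.08 and 1.49 in IRI, control-miRNA and mimic against sham, and A_51_P489003 gave 1.35 in mimic against IRI, where it was above background in neither group, so that this value carries no information on agreement. Signs turned as follows. In mimic against sham, the mean of probes gave 0.09 for Kcnq1, brightness −0.31 for Kcnq5, and normexp 0.09 for Kcns1 and 0.15 for Kcnu1. In mimic against IRI, brightness gave −0.03 for Kcna7, 0.29 for Kcne1l, 0.04 for Kcnip2, −0.16 for Kcnq1ot1 and −0.07 for Kcnq5, and normexp gave 0.18 for Kcne1l and 0.33 for Kcnip2. In mimic against control-miRNA, normexp gave 0.02 for Kcnip2 and the mean of probes 0.32 for Kcnq1. There Kcnj16 was 0.03 with quantile scaling, 0.03 with the deposited ratios and 0.02 with brightness, and Kcnt1 was −0.35, −0.35 and −1.90, −0.92 without mimic 7, 0.93 without mimic 6 and −0.33 without control-miRNA 1. The cause of these changes was not tested. The median of all genes in mimic against sham was 0.112, against 0.225 with normexp and 0.384 without the filter, and in mimic against IRI 0.102, against 0.223 and 0.496. The dim arrays limit what can be said of members near background in mimic kidneys.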
